A study of Mus musculus with 8 samples.

Results

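The transcripts of the cardiac connexins and of the cell junctions that hold heart muscle cells end to end were followed on 8 arrays of mouse ventricle. The set comprises 10 genes of the 22909 named on the array: the connexins Gja1, Gja3, Gja5 and Gjc1, the classical cadherin Cdh2, and the desmosomal genes Dsg2, Dsc2, Dsp, Jup and Pkp2. They were found by the RefSeq accessions of the probes, which gave 16 probes of 32988 named ones. Gja1 had 3 probes, Gja3, Gja5, Dsg2 and Jup had 2 each, and Gjc1, Cdh2, Dsc2, Dsp and Pkp2 had 1 each.

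Ventricular RNA was compared between knock-in (KI) mice homozygous for the ΔK210 allele of Tnnt2, the cardiac troponin T gene, and wild-type (WT) mice. The allele lacks a lysine codon and serves as a model of inherited dilated cardiomyopathy. The 4 groups were KI ventricle at 1 week, WT ventricle at 1 week, KI ventricle at birth (0 day) and WT ventricle at birth, with 2 arrays each. Ventricles of 3 animals were combined for each group, and the labels do not say whether both arrays of a group held separate pools, so p-values measure the spread between arrays, which may be technical. No drug or other treatment is given for any group, and the labels name neither the strain nor the sex of the animals.

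The deposited records disagree on the 1-week arrays. Called A to D by their place on the slide, A is a WT array in both the value table and the scanner files, and C is a KI array in both. B is KI in the value table and WT in the scanner files, and D is WT in the value table and KI in the scanner files. Genotypes below follow the value table (KI: B and C; WT: A and D), and results by the scanner files (KI: C and D; WT: A and B) stand beside them. The 4 arrays at birth carry the same labels in both. All 4 arrays at 1 week lay on 1 row of the slide and all 4 at birth on the other, so age and slide row cannot be told apart. At birth, and at 1 week by the scanner files, WT arrays lay in columns 1 and 2 and KI arrays in columns 3 and 4. Genotype and slide column cannot be told apart there either.

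Heart muscle cells meet at the intercalated disc, where gap junctions pass current and adherens junctions and desmosomes carry force. A gap junction channel is built of connexins: Gja1 encodes the main one of working ventricle, Gja5 one of the atria, the fast conduction system and arterial endothelium, and Gjc1 one of the embryonic heart and the nodes. In desmosomes, the cadherins Dsg2 and Dsc2 span the membrane, the armadillo proteins Jup and Pkp2 bind their tails, and Dsp ties the complex to desmin filaments. Cdh2 is the cadherin of the adherens junction. In newborn rodents these proteins are spread over the cell surface and gather at the cell ends over the weeks after birth. Inherited loss of desmosomal proteins causes arrhythmogenic cardiomyopathy in people.

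The start regions of 3 genes to which the results return are shown: Gja5, with the lowest fitted change with age, Gja1, whose probes disagreed, and Dsp, whose fall with age over both genotypes passed the test in 15 of 16 alternatives. Each window holds 250 bases before and 50 after the RefSeq transcription start, 5′ to 3′ on the gene's own strand, in RefSeq's annotation of GRCm38.p6. They lie at chr3:97032152-97032451 for Gja5, chr10:56377050-56377349 for Gja1 and chr13:38151044-38151343 for Dsp, all on the plus strand.
Gja5: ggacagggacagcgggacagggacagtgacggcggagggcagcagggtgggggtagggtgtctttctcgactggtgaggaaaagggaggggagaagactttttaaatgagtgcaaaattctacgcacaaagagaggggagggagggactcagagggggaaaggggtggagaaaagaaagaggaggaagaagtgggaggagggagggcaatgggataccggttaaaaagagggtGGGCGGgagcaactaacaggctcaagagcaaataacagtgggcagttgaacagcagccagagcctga
Gja1: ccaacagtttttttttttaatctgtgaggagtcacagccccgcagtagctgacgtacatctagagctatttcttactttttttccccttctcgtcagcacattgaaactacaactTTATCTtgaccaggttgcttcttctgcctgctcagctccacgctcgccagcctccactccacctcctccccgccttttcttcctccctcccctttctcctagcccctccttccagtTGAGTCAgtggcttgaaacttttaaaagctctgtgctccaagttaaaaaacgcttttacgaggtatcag
Dsp: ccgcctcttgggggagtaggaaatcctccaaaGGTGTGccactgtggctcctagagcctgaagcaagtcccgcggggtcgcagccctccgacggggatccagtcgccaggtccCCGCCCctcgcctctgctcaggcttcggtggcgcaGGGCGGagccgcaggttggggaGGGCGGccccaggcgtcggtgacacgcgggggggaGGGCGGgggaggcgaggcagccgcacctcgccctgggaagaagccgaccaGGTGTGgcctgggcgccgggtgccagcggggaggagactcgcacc
Capitals mark matches, on either strand, to 6 motifs: the GC box GGGCGG, found in 35.7% of 32851 such windows of the mouse, the T-box core GGTGTG (19% of windows), the Nkx2-5 site TNAAGTG (11.5%), the GATA site AGATAA (11.2%), the AP-1 site TGANTCA (7.81%) and the TATA box TATAAA (13.6%). No match overlapped another. The Dsp window held 4 GC boxes and 2 T-box cores and was 73% G and C. The Gja5 window held 1 GC box, 17 bases before the start, at 55.7% G and C. The Gja1 window held 1 AP-1 match, 19 bases before the start, and 1 GATA match on the minus strand, at 47.7% G and C. These letters describe the windows only, since no binding was measured.

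Levels are log2 signals minus the array's 75th percentile over its non-control probes, so a level of 0 is the brightness at that percentile. Between 58.9% and 63.1% of all probes were well above background on an array, and all 16 connexin and junction probes were so on all 8 arrays. Tnnt2 itself read 7.77 to 8.33, but its level checks no label, as the knock-in removes a codon and not the transcript. The 8 ventricular markers, Myl2 and Tnni3 among them, were above background on every array. Other cell types differed between arrays: summed over 7 atrial markers, signals relative to the 75th percentile reached 21 on A against 154, 172 and 296 on B, C and D and 153 to 274 at birth. Of 7 adipocyte markers, Ucp1, Adipoq, Plin1 and Cfd were above background on arrays B, C and D only. Ucp1, a gene of brown fat, read 0.52, 1.23 and 2.40 on B, C and D against -6.28 on A and -7.28 to -6.84 at birth. The other 3 markers were above background on every array. Ucp1, Adipoq, Plin1 and Cfd entered the fits only through 1-week arrays where they were high, so no test with age is drawn from them. Array D stood apart from the others along the second principal component, at -35.4 against -12 to 15.3. Its 75th percentile was a signal of 342, against 440 to 523 on the others. The first KI array at birth, the highest for Gja5 and Cdh2, was the only one that the scanner software flagged for evaluation.

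The first question was whether the junction transcripts change over the week after birth. Across all 4 arrays at 1 week and all 4 at birth, a comparison that needs no genotype label, 4 of the 10 genes fell and none rose: Dsp, Pkp2, Gja5 and Cdh2. Dsp, the desmosome's link to desmin, fell to 0.595 of its level at birth and Pkp2, an armadillo protein of the plaque, to 0.694. Gja5 fell to 0.576 and Cdh2, the adherens junction cadherin, to 0.807. By the brightest probes all 10 differences were negative. Their median was -0.25 on the log2 scale, against -0.030 over the 15744 genes tested. The other probes of Gja1, Gja3, Gja5, Dsg2 and Jup were on average higher at 1 week, and Dsp, Pkp2 and Cdh2 had 1 probe each. Of all genes 31.9% passed the same test (adjusted p under 0.05), 16.3% lower at 1 week and 15.5% higher, so change with age was common on these arrays. With array A, where the fat genes were not above background, as the only array at 1 week, Gja5 differed by -1.47. Dsp was then at -0.45, Pkp2 at -0.46 and Cdh2 at -0.49. Dsp, Pkp2 and Cdh2 lost their calls in that fit, in which fewer of all genes passed than with all 8 arrays. The groups did not overlap, with 1 week lower, for 3 of the 10 genes, against 19.4% of all genes.

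**Figure D1:**
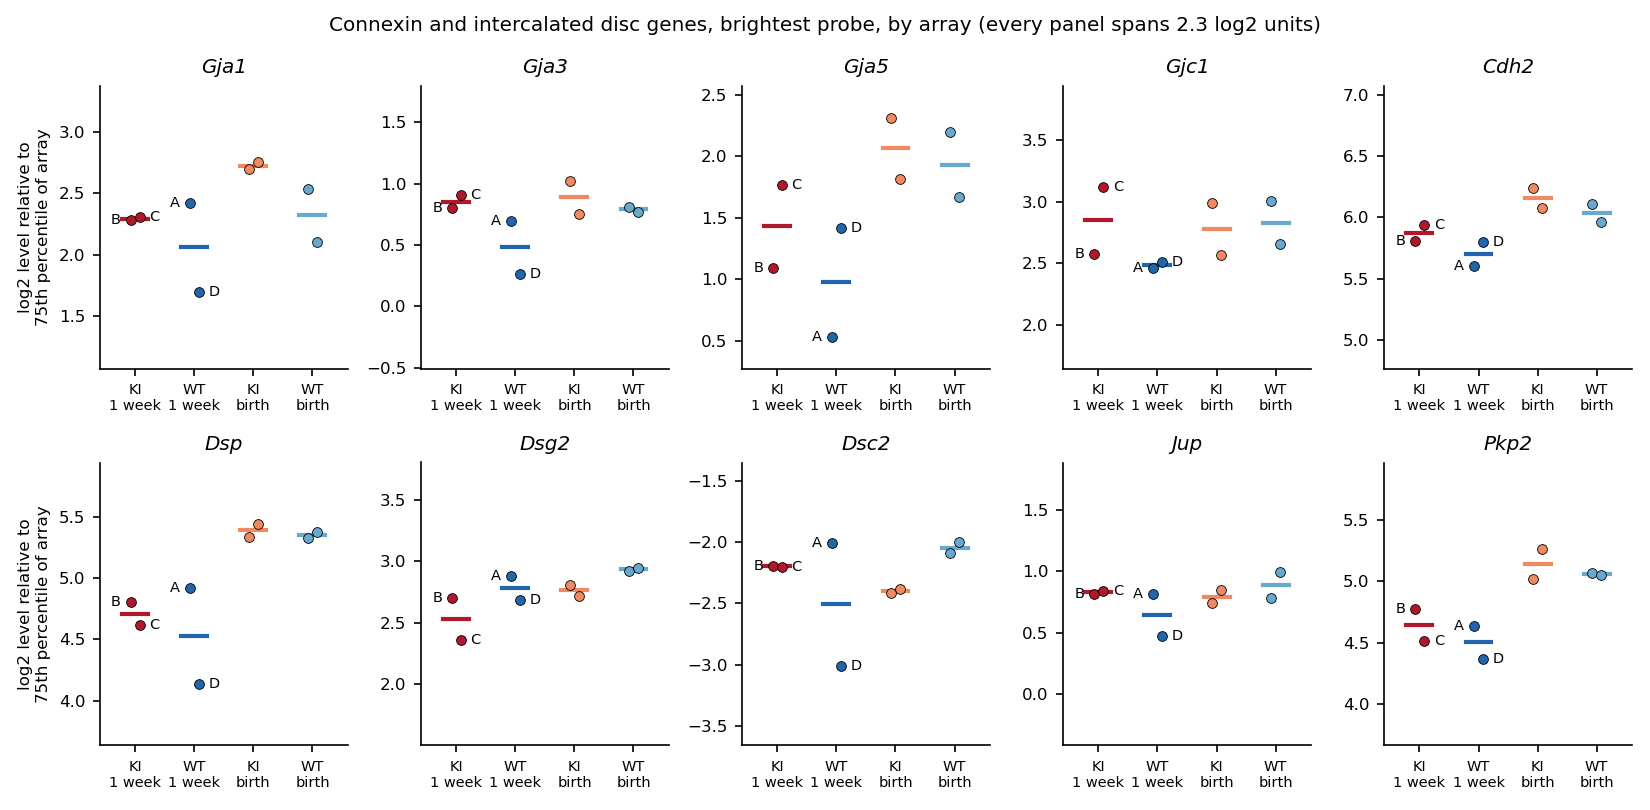
Level of the brightest probe of each of the 10 genes on every array, as log2 signal relative to the array's 75th percentile; points are arrays, bars are means of 2 arrays, and letters name the 1-week arrays, grouped by the value table. Dsp, Pkp2 and Cdh2 were lower on all 4 arrays at 1 week than on all 4 at birth, and Gja5 was lowest on array A.

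Among the connexins, Gja5 had levels of 1.09 and 1.77 in KI and 0.53 and 1.42 in WT ventricles at 1 week, against 2.31 and 1.82 in KI and 2.20 and 1.67 in WT ventricles at birth. The 2 ages overlapped narrowly, since array C at 1 week read above 1 WT array at birth, and the lowest value was that of array A. The fitted difference was -0.80 ± 0.26 (SE), a fold of 0.576 with a 95% interval of 0.382 to 0.868 and an adjusted p of 0.0462. Array A also had the lowest atrial marker sum, and without A the difference was -0.57 (adjusted p = 0.0823); the call held in 1 of 8 fits that left out 1 array, the one without array C. Of the 6 atrial markers tested none changed with age, of 8 conduction system markers 2 rose and 2 fell, and of 10 endothelial markers 7 rose; the part of other cell types in the Gja5 result was not tested. In such bulk tissue, fewer cells of a type and less RNA per cell cannot be told apart.

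Gja1 had levels of 2.28 and 2.31 in KI and 2.42 and 1.70 in WT ventricles at 1 week, against 2.70 and 2.75 in KI and 2.53 and 2.10 in WT ventricles at birth, by its brightest probe, A_52_P174915. The ages overlapped and array D was the lowest. The difference of -0.35 ± 0.19 did not pass the test (adjusted p = 0.202), and its 95% interval ran from a fold of 0.58 to 1.07. The other probes of the gene went the opposite way. Probe A_55_P2741907 read 1.05 and 1.24 in KI and 0.86 and 1.71 in WT ventricles at 1 week, against 0.67 and 0.71 in KI and 0.45 and 0.11 in WT ventricles at birth. It was higher on all 4 arrays at 1 week, by 0.73 ± 0.20, and passed in a fit over all 35343 probes (adjusted p = 0.0296), in which 25.5% of probes passed. Probe A_55_P2800487 read 1.46 and 1.45 in KI and 1.65 and 2.25 in WT ventricles at 1 week, against 1.28 and 1.57 in KI and 1.09 and 0.92 in WT ventricles at birth, with overlapping ages and a difference of 0.49 ± 0.21 (adjusted p = 0.116). Over the 8 arrays these 2 probes had a Pearson correlation of 0.90 with each other and of -0.52 and -0.48 with the brightest one. The direction of Gja1 therefore depends on the probe, and no change of the gene as a whole can be stated.

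**Figure D2:**
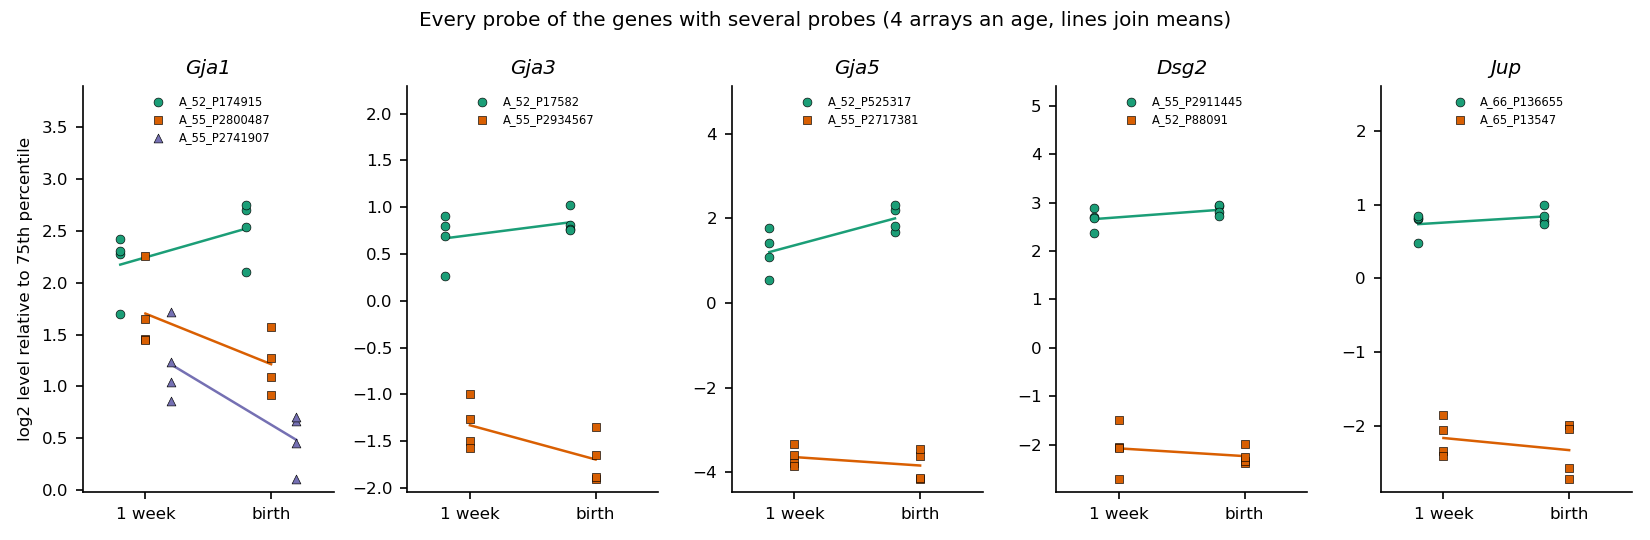
Levels of every probe of the 5 genes with several probes, at 1 week (left) and birth (right), as log2 signal relative to the array's 75th percentile; each point is 1 of 4 arrays at an age and lines join the means. The brightest probe, drawn as circles, was lower at 1 week in each gene, while the other probes were higher.

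Gja3, a connexin best known from the eye lens, had levels of 0.80 and 0.90 in KI and 0.70 and 0.27 in WT ventricles at 1 week, against 1.02 and 0.75 in KI and 0.81 and 0.77 in WT ventricles at birth. The ages overlapped and the difference was -0.17 ± 0.14 (adjusted p = 0.387; interval of the fold 0.708 to 1.11). Its other probe, A_55_P2934567, read -1.26 and -1.50 in KI and -0.99 and -1.57 in WT ventricles at 1 week, against -1.35 and -1.65 in KI and -1.90 and -1.88 in WT ventricles at birth, a difference of 0.37 ± 0.17 (adjusted p = 0.142). Neither probe passed, and they had opposite signs.

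Gjc1, the connexin of the embryonic heart and the nodes, had levels of 2.58 and 3.12 in KI and 2.46 and 2.51 in WT ventricles at 1 week, against 2.99 and 2.56 in KI and 3.005 and 2.66 in WT ventricles at birth. The highest value was that of array C at 1 week. The difference of -0.14 ± 0.17 did not pass (adjusted p = 0.572; interval of the fold 0.694 to 1.19). The second Gja5 probe, A_55_P2717381, which is listed under another transcript of the gene, read -3.60 and -3.85 in KI and -3.78 and -3.34 in WT ventricles at 1 week, against -3.63 and -3.45 in KI and -4.15 and -4.14 in WT ventricles at birth. It differed by 0.20 ± 0.19 between the ages (adjusted p = 0.47), so the lower level of Gja5 rested on its brightest probe.

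Cdh2 had levels of 5.81 and 5.94 in KI and 5.60 and 5.80 in WT ventricles at 1 week, against 6.24 and 6.08 in KI and 6.11 and 5.97 in WT ventricles at birth. All 4 arrays at 1 week were below all 4 at birth, by a narrow margin between array C and 1 WT array at birth. The difference was -0.31 ± 0.099, a fold of 0.807 with an interval of 0.69 to 0.943 (adjusted p = 0.0430). Quantile normalization in place of the 75th percentile ended the call, with -0.19 (adjusted p = 0.18), and the call held in 2 of 8 fits that left out 1 array, those without array C and without the second WT array at birth.

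Of the desmosomal cadherins, Dsg2 had levels of 2.70 and 2.36 in KI and 2.88 and 2.68 in WT ventricles at 1 week, against 2.81 and 2.72 in KI and 2.92 and 2.95 in WT ventricles at birth. The ages overlapped through array A, and the difference was -0.19 ± 0.12 (adjusted p = 0.25; interval of the fold 0.725 to 1.06). Its other probe, A_52_P88091, read -2.06 and -2.70 in KI and -2.04 and -1.49 in WT ventricles at 1 week, against -2.25 and -1.97 in KI and -2.37 and -2.34 in WT ventricles at birth, a difference of 0.16 ± 0.23. Dsc2, the partner of Dsg2, had levels of -2.19 and -2.20 in KI and -2.01 and -3.01 in WT ventricles at 1 week, against -2.42 and -2.38 in KI and -2.09 and -2.0 in WT ventricles at birth. Apart from array D, its 1-week values lay within the range at birth, and the difference of -0.13 ± 0.21 did not pass (adjusted p = 0.676; interval of the fold 0.653 to 1.28).

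Dsp had levels of 4.80 and 4.62 in KI and 4.92 and 4.14 in WT ventricles at 1 week, against 5.33 and 5.44 in KI and 5.32 and 5.38 in WT ventricles at birth. The arrays at birth lay close together and every 1-week array lay below them, array D the furthest. The difference was -0.75 ± 0.16, a fold of 0.595 with an interval of 0.463 to 0.764 (adjusted p = 0.00829). Without array D it was -0.59 (adjusted p = 0.00327).

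Pkp2 had levels of 4.77 and 4.51 in KI and 4.64 and 4.37 in WT ventricles at 1 week, against 5.02 and 5.27 in KI and 5.07 and 5.05 in WT ventricles at birth. All 4 arrays at 1 week were below all 4 at birth, with array D again the lowest. The difference was -0.53 ± 0.11, a fold of 0.694 with an interval of 0.585 to 0.822 (adjusted p = 0.00702). Dsp and Pkp2 passed in 15 of the 16 alternatives run for this comparison, all but the one with array A alone at 1 week, with differences of -0.85 to -0.45 for Dsp and -0.59 to -0.42 for Pkp2. Within 1 genotype they passed less widely, Dsp in 5 of 18 alternatives in KI and 4 of 18 in WT ventricles and Pkp2 in 1 and 3 of 18.

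Jup, the armadillo protein shared by desmosomes and adherens junctions, had levels of 0.82 and 0.84 in KI and 0.81 and 0.47 in WT ventricles at 1 week, against 0.74 and 0.85 in KI and 0.78 and 0.99 in WT ventricles at birth. The values overlapped except for array D, and the difference was -0.10 ± 0.11 (adjusted p = 0.493; interval of the fold 0.784 to 1.1). Its other probe, A_65_P13547, read -1.85 and -2.35 in KI and -2.06 and -2.41 in WT ventricles at 1 week, against -2.72 and -2.04 in KI and -2.57 and -1.99 in WT ventricles at birth, a difference of 0.16 ± 0.20. Of the plaque genes, Dsp and Pkp2 passed and Jup did not, and the difference between them was not tested.

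Epithelia also carry Dsp, Jup, Dsg2 and Dsc2. Of 10 epithelial markers 4 at 1 week and 3 or 4 at birth were not above background, and the defining gene Epcam was so on all 8 arrays. The summed level of the list was 3.75 to 5.96 at 1 week, against 4.97 to 5.88 at birth, and of the 6 markers tested 1 rose with age and none fell. Over the 8 ventricular markers the median difference with age was 0.022, and 2 of them, Hey2 and Irx4, fell. The summed fibroblast markers were higher at 1 week, at 399 to 527 against 209 to 248 at birth, and the endothelial ones at 195 to 268 against 153 to 158. The part of these cell types, and of the fat cells whose genes were seen on B, C and D, in the lower Dsp and Pkp2 was not tested.

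The age comparison was then made within each genotype, where each rests on 2 arrays against 2 and shares those arrays with the comparison above. By the value table none of the 10 genes passed in KI ventricles, where 10.6% of 15744 genes did, and none in WT ventricles, where 19% did. At an unadjusted p under 0.05 there were 2 genes of the set in KI ventricles, against 25.6% of all genes, and 4 in WT ventricles, against 36.6%.

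In KI ventricles 7 of the 10 differences were negative, with a median of -0.26 against -0.023 over all genes. Dsp differed by -0.68 ± 0.24 (adjusted p = 0.138), Gja5 by -0.63 ± 0.37 (adjusted p = 0.344) and Pkp2 by -0.50 ± 0.16 (adjusted p = 0.109). Gja1 differed by -0.43 ± 0.25, Cdh2 by -0.28 ± 0.14, Dsg2 by -0.23 ± 0.15 and Gja3 by -0.036 ± 0.18. Jup, Gjc1 and Dsc2 had positive differences of 0.035 ± 0.16, 0.070 ± 0.24 and 0.20 ± 0.29. The 2 KI arrays at 1 week were both below the 2 at birth for 6 genes, namely Gja1, Gja5, Cdh2, Dsg2, Dsp and Pkp2, and both above them for Dsc2, against 32.1% and 28% of all genes.

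In WT ventricles all 10 differences were negative by the brightest probes, with a median of -0.34 against -0.042 over all genes. Pkp2 differed by -0.56 ± 0.16 (adjusted p = 0.0556) and Dsp by -0.82 ± 0.24 (adjusted p = 0.0578), close to the threshold, and Gja5 by -0.96 ± 0.37 (adjusted p = 0.114). Cdh2 differed by -0.34 ± 0.14 and Dsc2 by -0.46 ± 0.29. Gja1, Gja3, Gjc1, Jup and Dsg2 lay between -0.35 and -0.15. Groups did not overlap, with 1 week lower, for 7 genes, against 33.6% of all genes. The exceptions were Gja1, Dsc2 and Jup. Without array A, the differences were -1.21 for Dsp, -0.96 for Dsc2 and -0.69 for Pkp2. At 1 week these values rest on array D alone. In the fit over all probes, in which 13.7% of probes passed in WT ventricles, the Gja1 probe A_55_P2800487 was higher at 1 week by 0.95 ± 0.23 (adjusted p = 0.0367).

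With the scanner files' genotypes, Dsp and Pkp2 passed in KI ventricles and no gene did in WT ventricles. In KI ventricles Dsp fell by 1.01 ± 0.17 on the log2 scale (adjusted p = 0.0140) and Pkp2 fell by 0.70 ± 0.13 (adjusted p = 0.0193), where 15.3% of 15757 genes passed. Gja1 differed by -0.72 ± 0.23 there (adjusted p = 0.0821). In WT ventricles Gja5 had the lowest value, -1.12 ± 0.29 (adjusted p = 0.0503), where 12.7% of genes passed, and 4 of the 10 genes had an unadjusted p under 0.05, against 30% of all, and Gja1 was at 0.030 ± 0.23. The Gja3 probe A_55_P2934567 was higher at 1 week in WT ventricles by 0.77 ± 0.16 in the probe fit (adjusted p = 0.0353), in which 8.8% of probes passed. Array D, the lowest for Dsp, Pkp2 and Gja1, is a KI array in that record. Without it, which leaves C as the only KI array at 1 week, Dsp differed by -0.77 and Pkp2 by -0.63 in KI ventricles. Calls moved in both genotypes in that fit: Pkp2 lost its call in KI ventricles and Dsp gained one in WT ventricles. Dsp stood at -0.49 in WT ventricles with or without D.

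**Figure D3:**
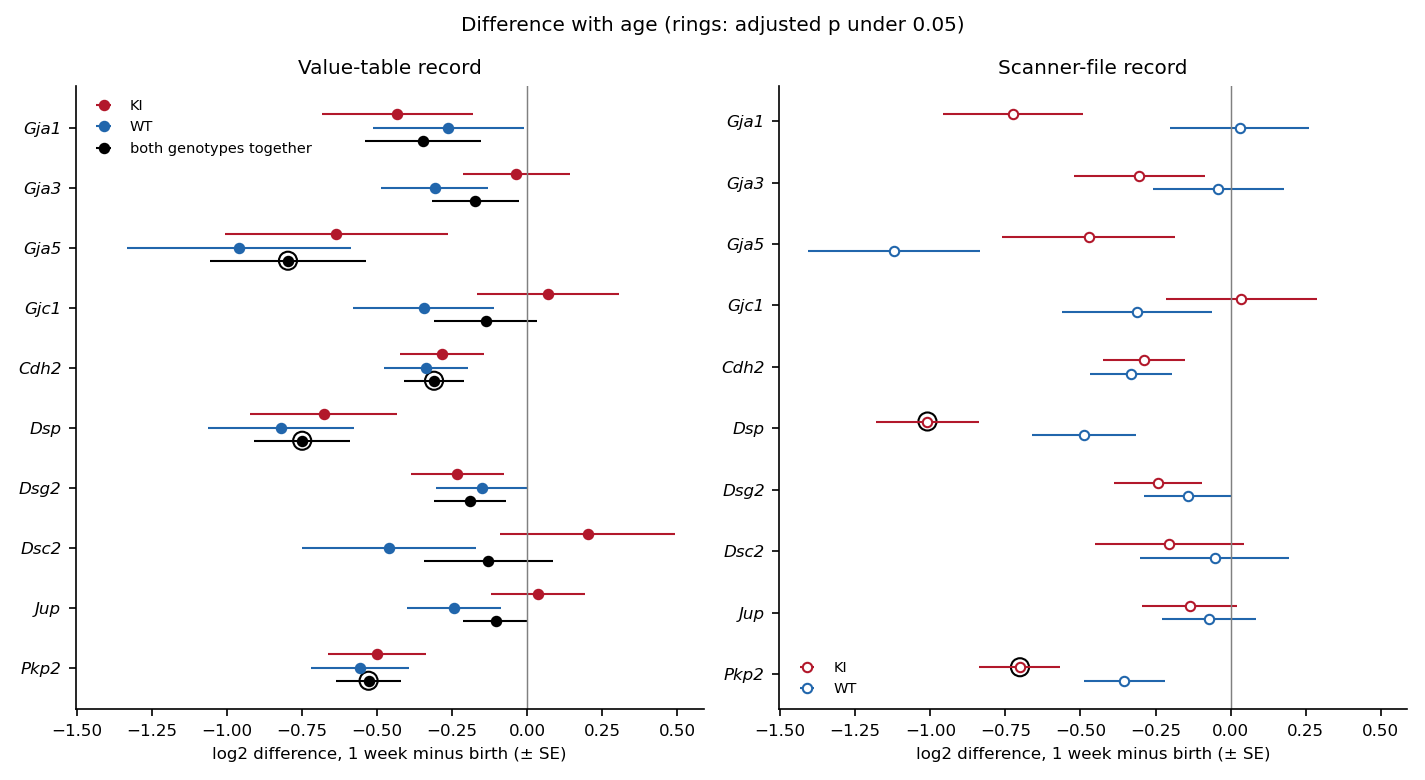
Fitted log2 difference, 1 week minus birth, of each gene's brightest probe, with its standard error, by the value table (left panel: KI, WT and both genotypes together) and by the scanner files (right panel: KI and WT). Rings mark an adjusted p under 0.05: Gja5, Cdh2, Dsp and Pkp2 with genotypes together, and Dsp and Pkp2 in KI by the scanner files.

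The study's main contrast was KI against WT. At 1 week no connexin or junction gene passed the test in either record, and most differences turned sign with the record. Of 15744 genes 8 passed by the value table, which is 0.0508%, and 1111 (7.06%) had an unadjusted p under 0.05, none of them among the 10. Higher levels in KI ventricles were read for 9 of the 10 genes, with a median difference of 0.21 against 0.026 over all genes. By the scanner files 1 of 15757 genes passed (0.00635%) and 9.87% had an unadjusted p under 0.05, and 7 of the 10 genes read lower, with a median of -0.21.

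By the value table Gja5 differed by 0.46 ± 0.37, a fold of 1.37 with an interval of 0.744 to 2.53, and Gja3 by 0.37 ± 0.18, with an interval of the fold of 0.966 to 1.73. Gjc1 differed by 0.36 ± 0.24 and Dsc2 by 0.31 ± 0.29. Gja1 (0.23 ± 0.25), Jup (0.19 ± 0.16), Dsp (0.18 ± 0.24), Cdh2 (0.18 ± 0.14) and Pkp2 (0.14 ± 0.16) were nearer to 0. Dsg2 was the exception, at -0.25 ± 0.15. Adjusted p lay between 0.689 and 0.831 for the 10 genes. Both KI arrays were above both WT arrays for 4 genes, Gja3, Gjc1, Cdh2 and Jup, against 19.8% of all genes. The widest interval was that of Gja5, and among the narrower ones were those of Cdh2 (a fold of 0.898 to 1.42) and Jup (0.88 to 1.47), all 10 of them holding 1.

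By the scanner files Gja5 differed by 0.78 ± 0.29 and Dsp by -0.48 ± 0.17, the 2 genes with an unadjusted p under 0.05, at adjusted p of 0.465 and 0.46. Both KI arrays were then above both WT arrays for Gja5, against 20.2% of all genes, and below them for Dsp, Dsg2, Dsc2 and Pkp2, against 19.9%. Gja1 (-0.35 ± 0.23), Gja3 (-0.16 ± 0.22), Dsc2 (-0.50 ± 0.25), Jup (-0.16 ± 0.16), Dsp and Pkp2 (-0.26 ± 0.13) had the opposite sign to that by the value table. Gja5, Gjc1 (0.30 ± 0.25), Cdh2 (0.16 ± 0.14) and Dsg2 (-0.27 ± 0.15) had the same sign in both records, none of them past the test. Beside Gja5 stood the atrial marker sums, at 154 and 172 on the KI arrays by the value table, against 21 and 296 on the WT arrays. By the scanner files they were 172 and 296 on the KI arrays, against 21 and 154 on the WT arrays, and their part in the Gja5 difference was not tested. The fat genes were above background on both KI arrays and 1 WT array at 1 week in either record, which is D by the value table and B by the scanner files, and their part was not tested either.

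At birth, where the records agree, no gene of the set passed either. Of 15744 genes 6 did (0.0381%), and 741 (4.71%) had an unadjusted p under 0.05, none of them among the 10. With the scanner files' groups in the fit, which change only the estimate of the spread and the genes tested, 0% of 15757 genes passed and 4.3% had an unadjusted p under 0.05. Gja1 had the highest difference, 0.40 ± 0.25, a fold of 1.32 with an interval of 0.876 to 2, and Dsc2 the lowest, -0.35 ± 0.29, a fold of 0.782 with an interval of 0.486 to 1.26. By the brightest probes Gja1 was higher on both KI arrays than on both WT arrays, and Dsg2 (-0.17 ± 0.15) and Dsc2 were lower, against 16.7% of all genes higher and 15.2% lower. The other 2 Gja1 probes were also higher on both KI arrays, while the second Dsg2 probe went against the first, at 0.24 ± 0.27 with both KI arrays higher. By their brightest probes the other 7 genes differed by -0.093 to 0.13, with overlapping groups: Gja3 by 0.099 ± 0.18, Gja5 by 0.13 ± 0.37, Gjc1 by -0.051 ± 0.24, Cdh2 by 0.12 ± 0.14, Dsp by 0.037 ± 0.24, Jup by -0.093 ± 0.16 and Pkp2 by 0.083 ± 0.16. The second probes of Gja5 and Gja3 were higher on both KI arrays, by 0.61 ± 0.19 and 0.39 ± 0.23, and neither passed in the fit over all probes. All 10 adjusted p of the brightest probes rounded to 1. The levels of Dsp and Pkp2 in newborn KI ventricles differed from WT by folds of 1.03 (interval 0.688 to 1.53) and 1.06 (0.811 to 1.38).

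**Figure D4:**
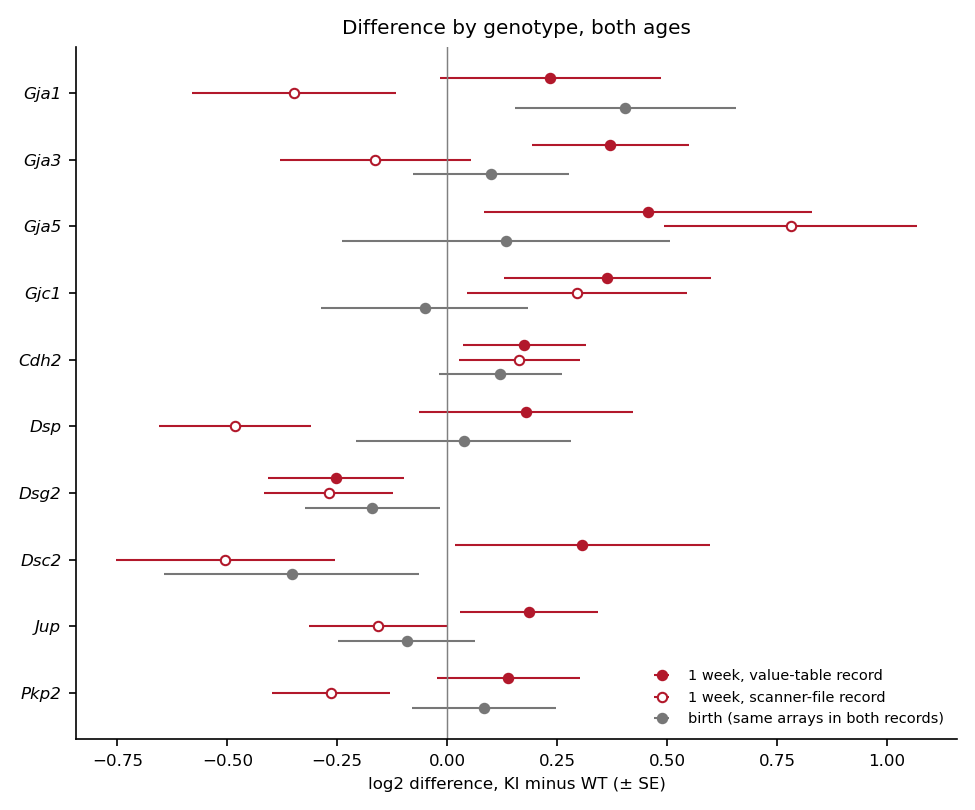
Fitted log2 difference, KI minus WT, of each gene's brightest probe, with its standard error: filled red by the value table at 1 week, open red by the scanner files at 1 week, grey at birth. No difference passed the test, and for Gja1, Gja3, Dsp, Dsc2, Jup and Pkp2 the 1-week value changed sign with the record.

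Whether the change with age differed between the genotypes was tested directly. None of the 10 genes passed, where 1 of 15744 genes did (0.00635%) by the value table and none of 15757 (0%) by the scanner files; 763 (4.85%) and 991 (6.29%) genes had an unadjusted p under 0.05 in these fits, none of them among the 10. By the value table the differences, KI minus WT, ran from -0.17 ± 0.36 for Gja1 and -0.082 ± 0.22 for Dsg2, through 0.055 ± 0.20 for Cdh2, 0.056 ± 0.23 for Pkp2 and 0.14 ± 0.35 for Dsp, to 0.66 ± 0.41 for Dsc2. Gja3 (0.27 ± 0.25), Jup (0.28 ± 0.22), Gja5 (0.32 ± 0.53) and Gjc1 (0.42 ± 0.33) lay between. By the scanner files they ran from -0.75 ± 0.33 for Gja1 to 0.65 ± 0.41 for Gja5. By the scanner files, with all 8 arrays in the fit, Dsp and Pkp2 passed with age in KI and not in WT ventricles. Their fall is nevertheless not shown to be particular to KI. The difference between the genotypes was -0.52 ± 0.24 for Dsp (adjusted p = 0.811) and -0.35 ± 0.19 for Pkp2 (adjusted p = 0.852).

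The arrays gave groups of genes that moved together, which is a description over 8 arrays that share the split by age. Dsp and Pkp2 had a Pearson correlation of 0.95, Gja5 and Cdh2 of 0.96, and Dsc2 and Jup of 0.88. Gja1 was most like Dsp (0.77), Gja3 most like Gja1 (0.77), Gjc1 most like Gja5 (0.74) and Dsg2 most like Dsp (0.56). The least alike pair was Dsg2 and Gjc1, at -0.33. Among 4252 genes that ranged over at least 1 log2 unit, those most like Gja5 were Tnrc18 (0.99), Faxc (0.97) and Tceal8 (0.97), and those most like Gja1's brightest probe were Nrxn3 (0.94), Arih1 (0.92) and Cacng6 (0.92).

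Other genes of the same families and of the disc were read from 4 companion lists, over all 4 arrays at each age, where 31.9% of all genes passed. Of the other connexin and pannexin genes reported here, 6 of 18 listed were tested and none passed, with a median of 0.18. Panx1, a pannexin channel, had an unadjusted p under 0.05, with a difference of 0.34 ± 0.14 and overlapping ages (adjusted p = 0.101). Of 13 further desmosomal genes, mostly those of stratified epithelia, 6 were tested and none passed, with a median of 0.050 and 1 at an unadjusted p under 0.05. Their difference from Dsp and Pkp2 was not tested.

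Of 11 further cadherins and catenins tested of 14 listed, 4 rose and 2 fell. Cdh13, a cadherin anchored to the membrane by a lipid, rose by 0.73 ± 0.081 (adjusted p = 0.000372) and Ctnnbip1, an inhibitor of beta-catenin, by 0.52 ± 0.088. Cdh3, a cadherin of epithelia, fell to 0.156 of its level at birth (-2.68 ± 0.60; adjusted p = 0.0104). It read -1.996 and -1.07 in KI and -3.94 and -2.64 in WT ventricles at 1 week, against 1.22 and 0.075 in KI and 0.47 and -0.67 in WT ventricles at birth. Its lowest value was on array A, as for Gja5. The others that passed, named after their values were seen, were Cdh5, the endothelial cadherin (0.49 ± 0.14), and Ctnna2 (0.65 ± 0.19), both higher, and Ctnnd1, which binds cadherin tails (-0.46 ± 0.084).

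Of 27 scaffold and anchoring genes of the disc, all tested, 5 rose and 5 fell. Xirp2, which binds actin at the disc, rose to 5.64 times its level at birth (2.50 ± 0.26; adjusted p = 0.000298). It read 1.16 and 0.42 in KI and 0.62 and -0.057 in WT ventricles at 1 week, against -1.70 and -1.61 in KI and -2.20 and -2.32 in WT ventricles at birth, with a wide gap between the ages. Ank3, the ankyrin that holds sodium channels at the disc, fell to 0.603 (-0.73 ± 0.12; adjusted p = 0.00273). The tight junction scaffold Tjp3 was lower too, and was not well above background on arrays A and D. In WT ventricles by the value table no fold is thus given for Tjp3. It read -4.98 on A and -4.47 on D, against -2.58 and -2.33 at birth. These readings passed the test (adjusted p = 0.00277), but the size of the fall is not known. In KI ventricles it read -4.54 and -4.03 at 1 week, against -2.53 and -2.06 at birth, a fold of 0.251 (adjusted p = 0.00558). The others, named after their values were seen, were Afdn (1.07 ± 0.20), Nectin1 (0.65 ± 0.11), Lasp1 (0.56 ± 0.094) and Tmem43 (0.29 ± 0.077), all higher, and Flnc (-0.57 ± 0.14), Lmo7 (-0.50 ± 0.12) and Vcl (-0.39 ± 0.096), all lower. Of these, Afdn and Nectin1 serve the nectin adhesions beside cadherins, and Vcl links adherens junctions to actin. No companion gene of the 50 tested passed between KI and WT at either age, in either record. At an unadjusted p under 0.05 there were 4 at 1 week and 2 at birth by the value table, against 7.06% and 4.71% of all genes. By the scanner files there were 5 and 1, against 9.87% and 4.3% of all genes.

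**Figure D5:**
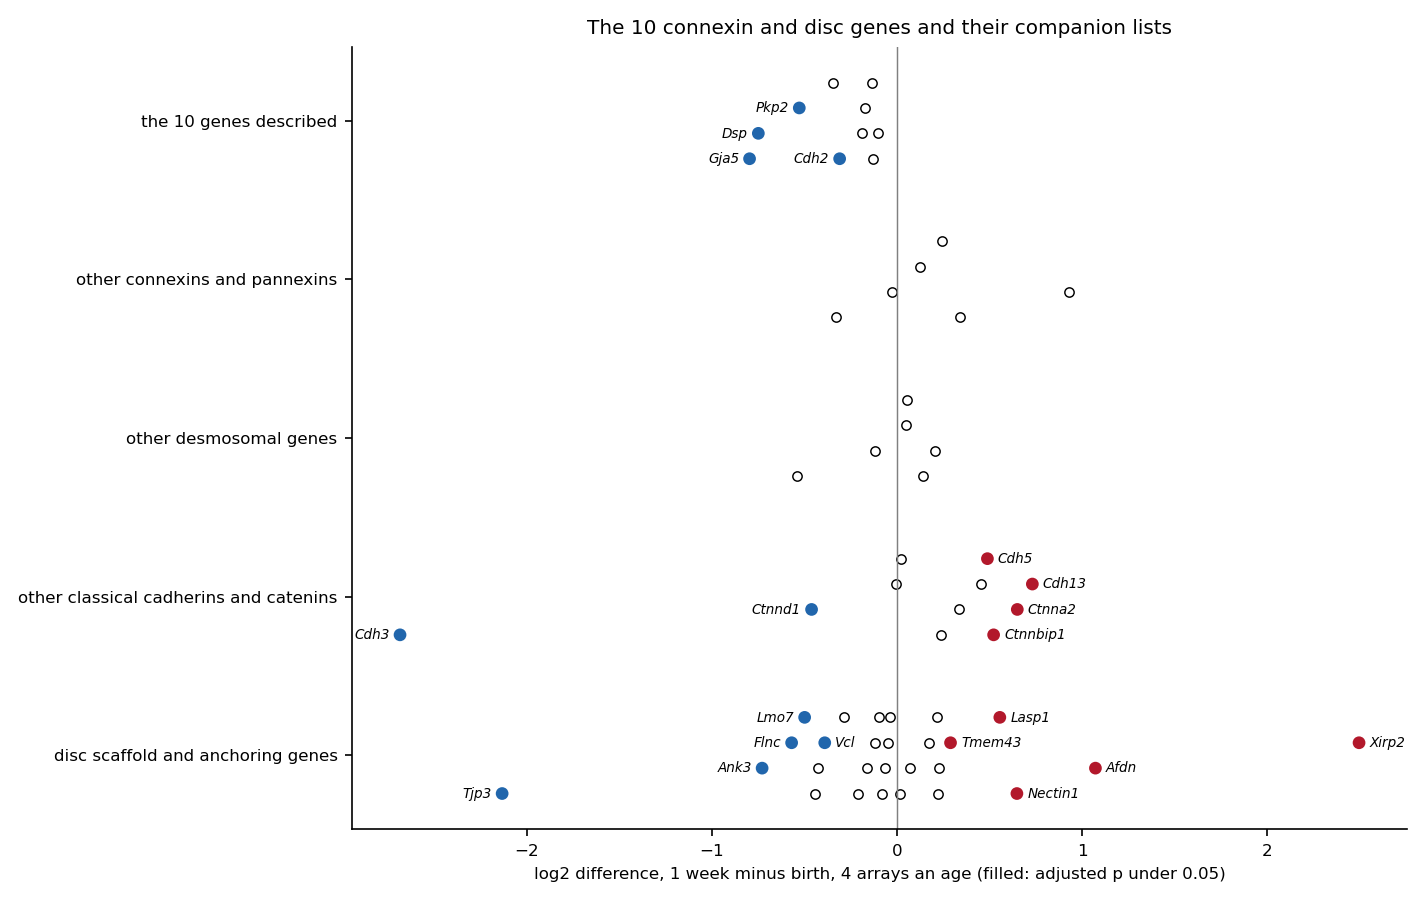
Fitted log2 difference, 1 week minus birth over 4 arrays an age, of the 10 genes (top row) and of 4 companion lists; filled points passed at an adjusted p under 0.05, blue lower and red higher at 1 week, open points did not pass. Of the 10 genes 4 passed, all lower; of the scaffold and anchoring genes 5 were higher and 5 lower, with Xirp2 and Tjp3 at the ends. The point of Tjp3 includes arrays A and D, where it was not well above background.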

How the data were processed

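Per the file headers, spot intensities were read and background-corrected by the submitters with Agilent Feature Extraction 11.0.1.1, while version 9.1 stands in their processing notes; the design is annotated on mm9. The deposited value table equals the processed signal of 1 array per column (relative tolerance 1e-04), which tied each of its columns to an array; 3 of the 4 arrays at 1 week have another sample name there than in their scanner file. Control spots were left out, spots of a probe averaged, and log2 signal was taken relative to each array's 75th percentile. A gene stood by its brightest probe, and was tested where 1 group or more had it well above background on all its arrays. All 8 arrays entered 1 limma fit (version 3.58.1, R 4.3.3) with 4 group means, and Benjamini-Hochberg adjustment over all 15744 genes at 0.05; 95% intervals are unadjusted. The fit was tested on simulated data. The comparison with both genotypes together, a fit of its own on age alone, was added after the records were seen to differ. Genes named are the 10 and, from each companion list, those with the smallest adjusted p. These genes, the companion lists and the marker lists were chosen with earlier results of these data known. From the list of other connexins, 1 gene is not reported here and is left out of its counts. Alternatives changed the labels, background correction, normalization, filter, probe choice, arrays in the fit and pairing, or left out 1 array.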

Additional observations from a re-analysis of the deposited data

How the results depend on the processing

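With genotypes together, Dsp and Pkp2 were lower at 1 week under all 16 alternatives and kept their call in 15, Cdh2 in 5 and Gja5 in 4. The exception, added after seeing the data, had array A as the only 1-week array: 1 of the 10 genes and 1932 of all passed, and Dsg2 (0.034) and Dsc2 (0.22) turned sign. None of the 10 genes passed by genotype or for age by genotype under any alternative. Other calls moved, and the causes were not tested. Replicate numbers could not be shown to pair the arrays, as deviations of equal numbers correlated at -0.14 to 0.29 between groups. With a replicate block, 2 of the 10 genes passed with age in place of 4, where 4904 genes of all did. By genotype at birth and for age by genotype 0 genes of all then passed (without it 6 and 1). With genotypes together, 2 of the 10 also passed with quantile normalization and with no filter on dim probes, where 4892 and 4017 genes did. The same number passed with every probe a row of its own, where 9005 probes passed. For age in WT ventricles 3 of the 10 passed with normexp, where 3138 genes of all did. With probes above background on all 8 arrays 2 of the 10 passed, where 3058 genes did. In KI ventricles 2 of the 10 passed by the scanner files, where 2405 genes did, and 1 with only the arrays compared, where 1655 did.

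Counts over all genes moved as well. By age in WT ventricles 1868 genes passed with no filter, 4828 probes with every probe a row and 1454 genes with only the arrays compared, and in KI ventricles 1084 genes with no filter. By genotype at 1 week 1 gene passed by the scanner files, 4 with normexp, 3 with no filter, 4 with the strict filter, 3 with the mean over probes, 5 probes with every probe a row and 0 genes with only the arrays compared. At birth these were 3 with the strict filter, 2 with every probe a row, and 0 by the scanner files, with or without array D, with no filter and with only the arrays compared. For age by genotype 2 passed with the strict filter, and 0 by the scanner files, with or without array D, with quantile normalization, no filter or every probe a row.

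Signs turned for uncalled values. The mean over all probes gave Gja1 0.29 with genotypes together, 0.56 in WT, 0.016 in KI and -0.14 by genotype at 1 week, Gja3 0.10, 0.15 and 0.042 for age and -0.11 for age by genotype, Gja5 -0.23 for age by genotype, Jup 0.030 for age, and Dsg2 0.22 for age in WT and 0.037 by genotype at birth. Normexp gave Dsc2 0.018 for age, and quantile normalization gave Cdh2 -0.0062 and Pkp2 -0.015 for age by genotype. The scanner files turned 1-week genotype differences of Gja1 (-0.35), Gja3 (-0.16), Dsp (-0.48), Dsc2 (-0.50), Jup (-0.16) and Pkp2 (-0.26), age by genotype of Gja3 (-0.26), Dsp (-0.52), Dsc2 (-0.15), Jup (-0.064) and Pkp2 (-0.35), and age differences of Gja1 in WT (0.030) and of Dsc2 (-0.20) and Jup (-0.14) in KI. Without array D the same record gave, by genotype, Gja1 -0.044, Dsp -0.24, Dsc2 -0.10 and Pkp2 -0.19, for age by genotype Dsp -0.28 and Pkp2 -0.27, and for age Gja1 0.030 in WT and Gja3 0.016 in KI.

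With 1 array left out, a lone array was assumed to vary like the other groups. With genotypes together 2 to 4 of the 10 genes then passed, in a comparison that 31.9% of all genes passed with all 8 arrays in the fit. Of all genes 1193 to 4180 passed with age in WT, 560 to 2022 in KI, 0 to 7 by genotype at birth, 2 to 22 at 1 week and 0 to 4 for age by genotype. Differences that changed sign ranged, with age, from -0.24 to 0.089 for Dsc2 together, -0.62 to 0.10 for Gja1 and -0.96 to 0.040 for Dsc2 in WT, and -0.17 to 0.10 for Gja3, -0.20 to 0.34 for Gjc1 and -0.017 to 0.087 for Jup in KI. By genotype at birth they ranged from -0.035 to 0.23 for Gja3, -0.13 to 0.40 for Gja5, -0.27 to 0.16 for Gjc1, -0.016 to 0.091 for Dsp, -0.20 to 0.016 for Jup and -0.041 to 0.21 for Pkp2, and at 1 week from -0.13 to 0.60 for Gja1, -0.21 to 0.57 for Dsp and -0.19 to 0.81 for Dsc2. For age by genotype they ranged from -0.53 to 0.19 for Gja1, -0.12 to 0.77 for Gja5, -0.043 to 0.15 for Cdh2, -0.25 to 0.53 for Dsp, -0.25 to 0.087 for Dsg2 and -0.079 to 0.19 for Pkp2. Only 2 arrays a group set the precision of these values.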
